A study of Homo sapiens with 6 samples.

Results

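The genes that supply deoxynucleotides for DNA synthesis were examined for the transcription factor E2F1 and for histone H3 trimethylated at lysine 27 (H3K27me3) in MDA-MB-231, a cell line established from a human triple-negative breast cancer. The 8 genes were RRM1, RRM2, RRM2B, TYMS, DUT, DTYMK, TK1 and DCK, chosen by name for their enzymes among 19970 protein-coding genes on the chromosomes that the peak lists cover. RRM2 was an example locus of the study. A peak was counted at a gene when it lay within 1 kb of any annotated transcription start site (TSS) of that gene, using the summit of a narrow E2F1 peak or any base of a broad H3K27me3 peak, and peaks over the gene body were listed as well.

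The series holds 6 samples of the same cell line, each a single library, so no condition has a replicate and no difference between conditions was tested. For E2F1, untreated cells were compared with cells kept for 72 h in either DMSO, the solvent, or GSK126 at 1 µM, which blocks the catalytic activity of EZH2. For H3K27me3, a lentivirus delivered either the control shRNA or the hairpin aimed at E2F1 (shE2F1) over 24 h, and puromycin at 2 µg/ml selected the transduced cells over the next 72 h. An input of untreated cells was not used here, and the peak lists hold no measure of how far E2F1 was depleted.

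Deoxynucleotides are made by reduction of ribonucleotides or by salvage of deoxynucleosides. Ribonucleotide reductase pairs a large subunit, RRM1, with a small subunit, RRM2 in dividing cells or RRM2B, which is inducible by p53. TYMS methylates dUMP to dTMP, DUT removes dUTP and yields dUMP, and DTYMK phosphorylates dTMP, while TK1 and DCK phosphorylate thymidine and deoxycytidine. Activator E2Fs are known to drive many genes of the G1/S transition, among them several of this pathway, and they bind a short GC-rich motif. H3K27me3 is laid down by EZH2 in Polycomb repressive complex 2 and is found at repressed genes.

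The E2F motif searched was TTSSCGC on either strand, where S stands for C or G. The copy nearest to the GSK126 summit of each gene follows, with the motif in capitals and 11 bases on each side, because the variant of the motif and its bases differ between the genes. All sequences were read from hg38, 5′ to 3′ on the strand that carries the motif. RRM2B is absent since its peak held no match.
RRM1 (chr11:4094814-4094842, minus strand): tccaaatccccTTCCCGCgcccgccaccc
RRM2 (chr2:10122365-10122393, minus strand): tctcggcggccTTGGCGCgcgcgggcccc
TYMS (chr18:658407-658435, minus strand): gtgctctcctcTTCCCGCcgcctttgccc
DUT (chr15:48332160-48332188, plus strand): aaatttcggttTTGGCGCgctccctgcgg
DTYMK (chr2:241686317-241686345, plus strand): gacaccacggtTTCGCGCgggtttacacg
TK1 (chr17:78187047-78187075, plus strand): taagcccctggTTCCCGCgccgaccgctt
DCK (chr4:70993659-70993687, minus strand): ggggtttgactTTGGCGCgcggaggcagc

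E2F1 was listed at the TSS of 6 of the 8 genes without treatment, of 7 under DMSO and of all 8 under GSK126. Over all protein-coding genes the corresponding shares were 5.85%, 33.5% and 51.5%. RRM1, RRM2, TYMS, DUT, TK1 and DCK had a peak in all 3 lists, as did 5.71% of all genes. DTYMK had a peak in DMSO and GSK126 but none in untreated cells (27% of all genes), and RRM2B had one in GSK126 alone (18.6% of all genes). The untreated list is the shortest, with 1056 peaks against 15703 in DMSO and 14276 in GSK126, and its lowest background was 0.668 fragments against 1.82 and 1.70, and the part of depth in the missing untreated peaks was not tested.

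**Figure D1:**
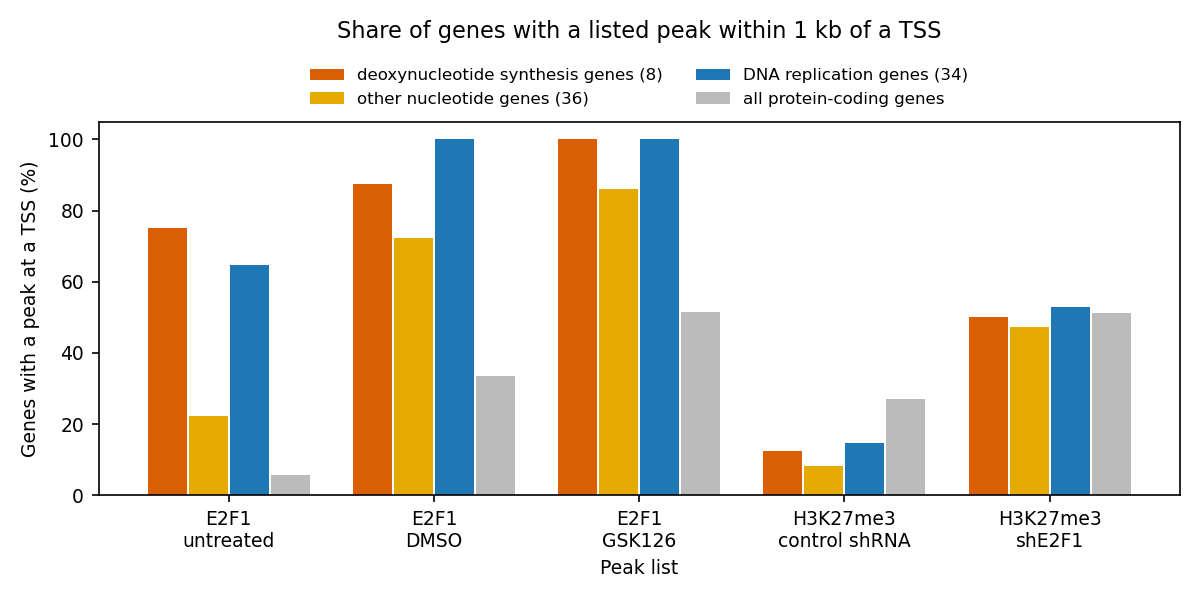
Percentage of genes with a listed peak within 1 kb of a TSS (vertical axis) in each of the 5 peak lists, for the 8 deoxynucleotide synthesis genes, 36 other nucleotide genes, 34 DNA replication genes and all protein-coding genes. For E2F1 in untreated cells, 75% of the 8 genes and 64.7% of the replication genes stand above 22.2% of the other nucleotide genes, whereas for H3K27me3 in shE2F1 the bars lie between 47.2% and 52.9%.

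Fold enrichment is given for the strongest peak of each gene. It is the authors' value, in which MACS2 divides the fragments at the summit plus 1 by the local background plus 1, so that it is lowered most where the background is low, as in the untreated list. The median over the genes with a peak was 11.1 in untreated, 17.6 in DMSO and 28.6 in GSK126, against 8.28, 6.03 and 7.78 over all protein-coding genes with a peak in the same list. Those medians lay at the 74.5th, 94.3rd and 95.6th percentiles of the 1168, 6698 and 10279 genes with a peak in each list. These sets differ in size, so the percentiles cannot be compared between lists. TYMS carried the highest fold of the 8 genes in every list, and RRM2B the lowest in GSK126.

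**Figure D2:**
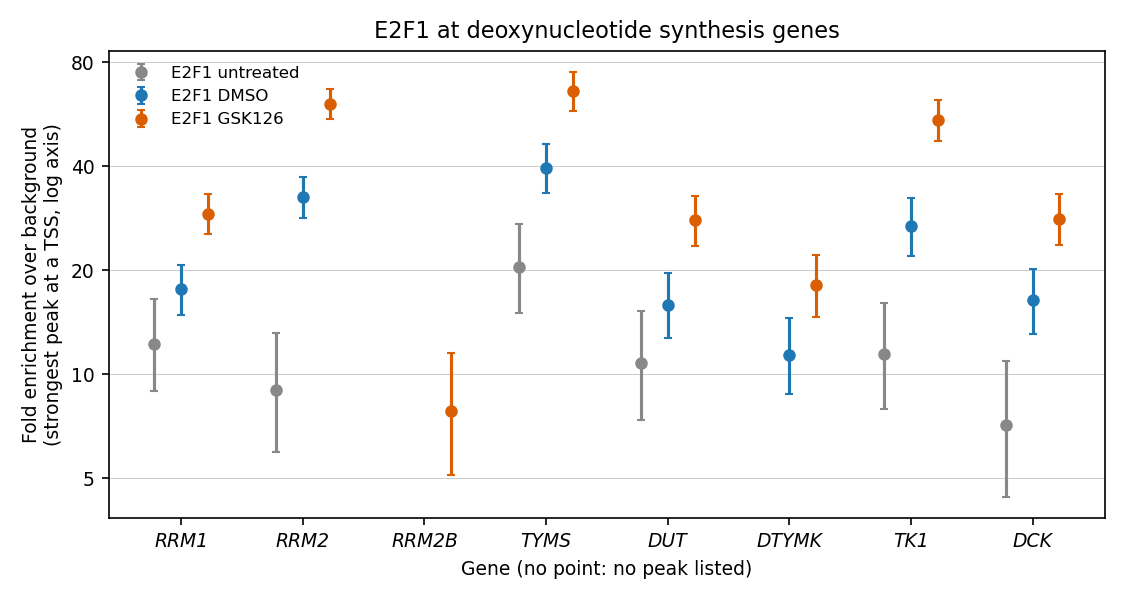
Fold enrichment of the strongest E2F1 peak at a TSS of each gene (log axis) in untreated, DMSO and GSK126 libraries, with bars for the exact Poisson 95% interval of the fragment number, which covers counting error only. GSK126 values lie above DMSO values for all 7 genes with both, and RRM2B has a point in GSK126 alone.

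The 3 subunit genes of ribonucleotide reductase differed in their E2F1 peaks. RRM1 and RRM2 had a peak in all 3 lists, and RRM2B had one in GSK126 alone. RRM1, the large subunit, lies at chr11:4094707-4138932. The fold at its start was 12.3 in untreated (42 fragments at the summit), 17.6 in DMSO (143 fragments) and 29.2 in GSK126 (222 fragments). The 3 summits fell within 13 bp of one another, in a UTR exon, and the motif shown above lay 14 bp from the GSK126 summit and 1 bp from the DMSO summit. One further DMSO peak, of fold 2.85 and 16 fragments, sat in the RRM1 gene body 1367 bp from the nearest TSS, just outside the window, and was the only gene-body peak of the 8 genes that was not also at a TSS.

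RRM2, the small subunit used in S phase, had the most fragments of the 8 genes in DMSO and in GSK126. It is annotated at chr2:10120698-10211725 with 14 TSSs, and E2F1 was listed at 2 places in the untreated and DMSO libraries. At the main start the fold was 9.03 in untreated (25 fragments), 32.5 in DMSO (211 fragments) and 60.4 in GSK126 (391 fragments). The upstream peak, 288 bp before the first annotated TSS in untreated and 260 bp before it in DMSO, had a fold of 6.28 (21 fragments) and 16.4 (85 fragments). In GSK126 both places were covered by a single peak of 3953 bp, chr2:10119965-10123917, so the upstream site has no value of its own there. The main summits were less fixed than those of the other genes, spreading over 248 bp across the 3 lists.

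The upstream RRM2 site carried no E2F motif within 75 bp of the DMSO summit, and the whole DMSO peak of 735 bp held 1. The 151 bases around the summit are shown because they hold no match, with the single CCAAT box, the site of NF-Y, in capitals.
RRM2 upstream peak (chr2:10120363-10120513, plus strand): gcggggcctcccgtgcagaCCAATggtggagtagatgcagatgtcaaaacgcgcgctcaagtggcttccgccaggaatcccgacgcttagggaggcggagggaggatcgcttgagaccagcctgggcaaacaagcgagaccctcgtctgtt
The stretch lies between protein-coding genes and overlaps no annotated exon. At the main start the RRM2 motif was 1 bp from the DMSO summit but 173 bp from the GSK126 summit.

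RRM2B, the p53-inducible small subunit, differed from RRM2 in its E2F1 listing. The gene lies at chr8:102204502-102238961, and its one peak was in GSK126, with a fold of 7.83 and 24 fragments (95% Poisson interval 15.4 to 35.7). That fold was at the 50.3rd percentile of all genes with a GSK126 peak, against 99.6 for RRM2. The summit lay 255 bp upstream of the TSS. The nearest DMSO summit was 415592 bp from an RRM2B TSS and the nearest untreated one 567396 bp.

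**Figure D3:**
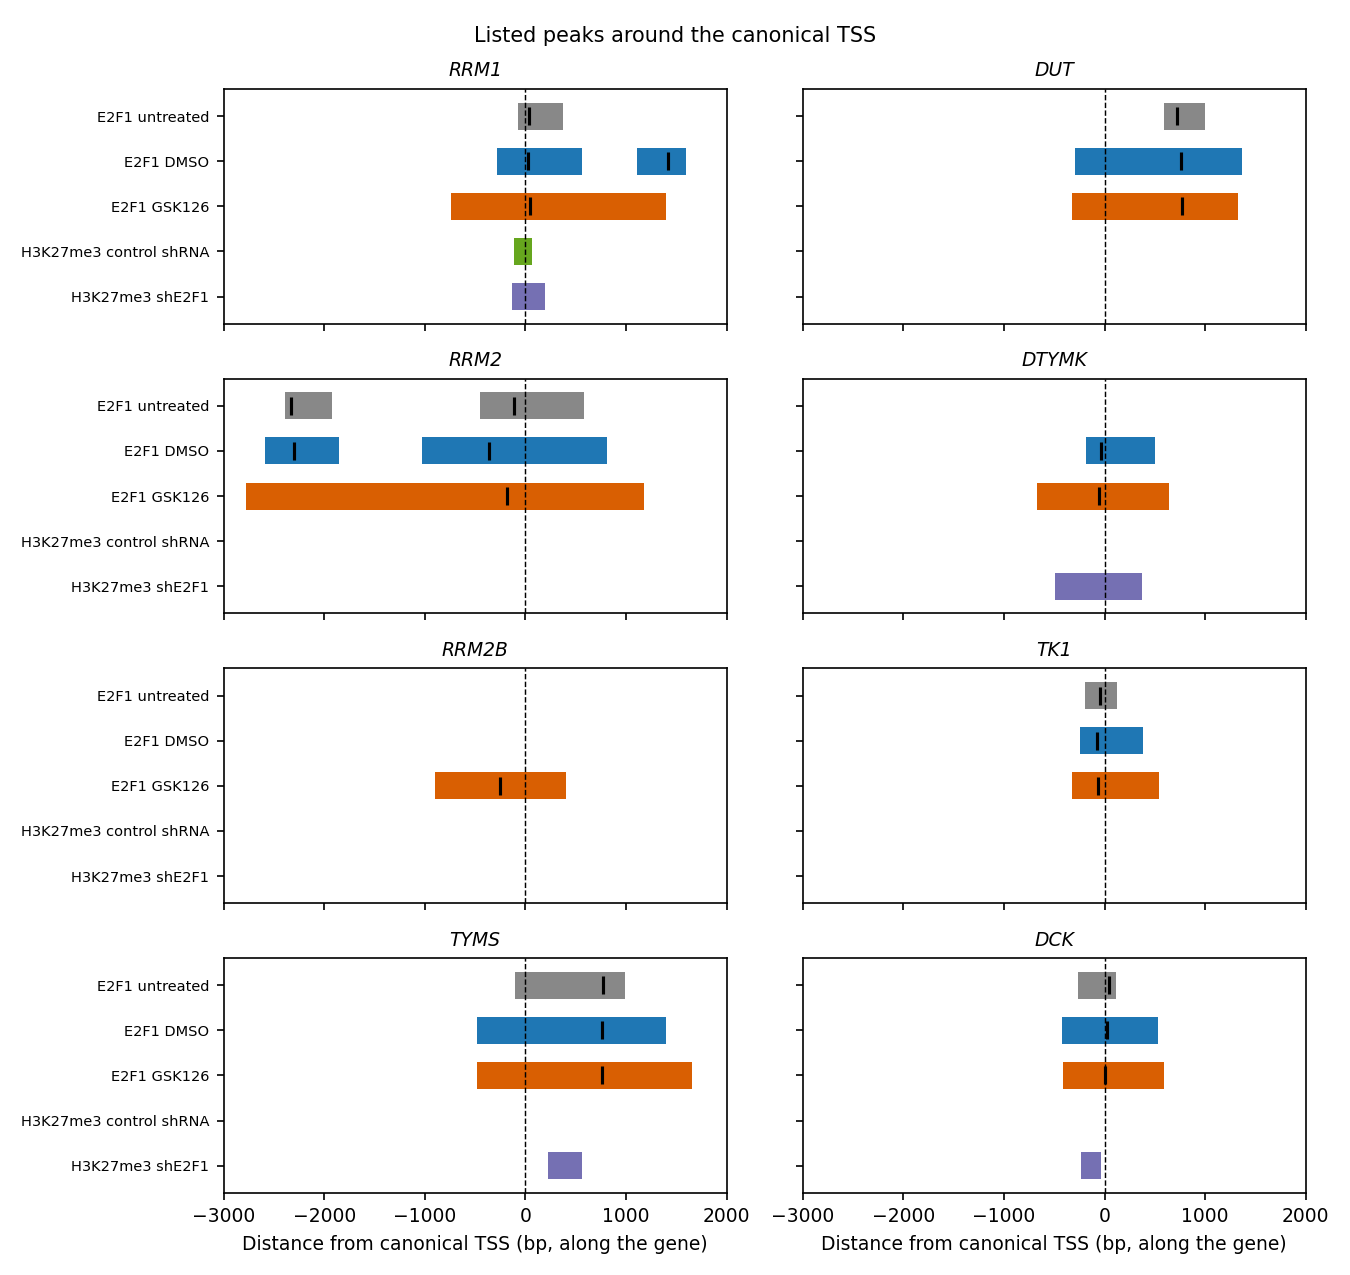
Extent of every listed peak around the canonical TSS of each gene (horizontal axis, distance in bp along the direction of transcription), with 1 row per peak list and a black tick at each E2F1 summit. The RRM2 panel shows 2 peaks in untreated and DMSO where GSK126 has 1 of 3953 bp, and the TYMS and DUT summits stand downstream of the dashed line.

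The thymidylate genes ranged from the strongest promoter of the set to one that was missing in untreated cells. TYMS, thymidylate synthase, at chr18:657653-673578, had a fold of 20.4 in untreated (45 fragments), 39.5 in DMSO (147 fragments) and 65.9 in GSK126 (234 fragments). By fold its DMSO peak ranked 19th of the 15703 in that list. All 3 TYMS summits fell within 6 bp of one another, in an annotated TYMS exon 764 to 770 bp downstream of the canonical TSS. They lay 153 to 159 bp downstream of another TYMS TSS, and the motif lay 4 bp from the GSK126 summit. By fragments, RRM2 exceeded TYMS in DMSO and in GSK126 with intervals that did not overlap, whereas by fold TYMS was higher. The local background that divides the fragments was 5.53 at RRM2 and 2.74 at TYMS in DMSO.

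DUT, the dUTPase, at chr15:48331011-48343373, had a fold of 10.8 in untreated (30 fragments), 15.9 in DMSO (85 fragments) and 27.9 in GSK126 (141 fragments). These summits also stood downstream of the canonical TSS, by 717 to 770 bp, and 11 to 43 bp from alternative DUT starts, and the lncRNA DUT-AS1 begins 247 bp from a DUT TSS. DTYMK, thymidylate kinase, at chr2:241675747-241686944, had no untreated peak, and its fold was 11.4 in DMSO (62 fragments) and 18.1 in GSK126 (94 fragments). Its promoter is shared with ING5, a chromatin reader gene on the other strand whose TSS is 141 bp away, and both peaks counted for both genes. No E2F motif lay within 100 bp of either DTYMK summit, and the nearest copy in the peak was 542 bp from the GSK126 summit, in an intron.

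Both salvage kinases had E2F1 at their start in all 3 lists. TK1, thymidine kinase, at chr17:78174091-78187233, had a fold of 11.5 in untreated (32 fragments), 26.8 in DMSO (108 fragments) and 54.3 in GSK126 (209 fragments). AFMID starts 125 bp from a TK1 TSS on the opposite strand and shared the peak in all 3 lists. The DCK values, for deoxycytidine kinase at chr4:70992538-71030914, were a fold of 7.12 in untreated (19 fragments), 16.4 in DMSO (85 fragments) and 28.1 in GSK126 (139 fragments). DCK summits lay 4 to 47 bp from the nearest TSS, and those of TK1 32 to 65 bp.

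The order of the genes by fragments was only partly resolved. In untreated cells the Poisson intervals of every pair of neighbours in the order TYMS, RRM1, TK1, DUT, RRM2, DCK overlapped. In DMSO only RRM2 stood apart from its neighbour, TYMS, and the intervals of the other neighbours overlapped down to DTYMK. In GSK126 the intervals did not overlap between RRM2 and TYMS, between TK1 and DUT, between DCK and DTYMK or between DTYMK and RRM2B.

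Between DMSO and GSK126 the fold was higher in GSK126 at all 7 genes with a peak in both, as it was for 97.2% of 6539 protein-coding genes with a peak in both. Expressed as log2 of the GSK126 fold divided by the DMSO fold, the median was 0.78 over the 7 genes and 0.73 over all genes. It ran from 0.67 at DTYMK to 1.02 at TK1, where the fold was 2.03 times higher. All 7 genes passed a rise of 1.5 times, which 67.7% of all genes passed. RRM1 and TYMS were at the 49.5th and 50.7th percentiles of all genes by this ratio, RRM2 at the 70.8th and TK1 at the 82.9th.

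On fragments divided by the lowest background of each library, the log2 ratio was 0.99 for RRM2 (95% interval 0.74 to 1.24), 1.05 for TK1 (0.71 to 1.40) and 0.70 for DTYMK (0.22 to 1.18). These exact binomial intervals cover counting error only, and all 7 excluded 0. How many of all genes would do so was not counted, but 97.2% of 6539 genes had a higher fold in GSK126. With 1 library per condition, a difference of this kind between the drug and its solvent cannot be told apart from a difference between 2 immunoprecipitations, and the whole list moved with these genes.

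**Figure D4:**
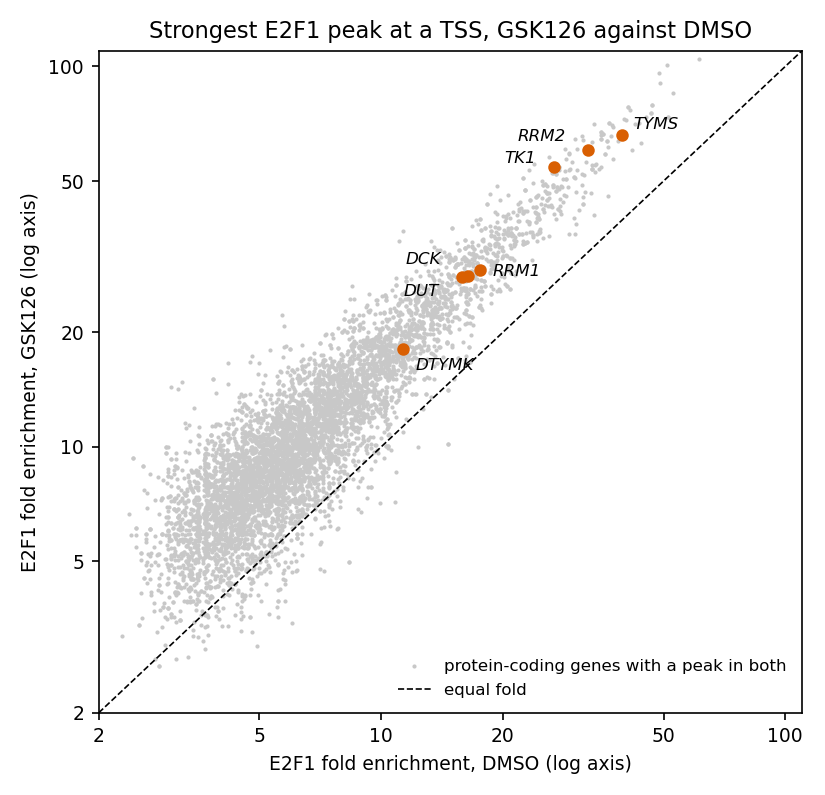
Fold enrichment of the strongest E2F1 peak at a TSS in GSK126 (vertical, log axis) against DMSO (horizontal, log axis) for 6539 protein-coding genes with a peak in both (grey) and 7 deoxynucleotide synthesis genes (orange), with a dashed line at equal fold. The orange points run from DTYMK to TYMS inside the grey cloud, above the line.

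From untreated to DMSO the log2 ratio of fold was largest at RRM2, where it was 1.85, at the 98.4th percentile of 1140 protein-coding genes with a peak in both. The other 5 genes ran from 0.52 at RRM1 to 1.23 at TK1, with a median of 1.08 over all 6 against 0.50 over all genes. The fold was higher in DMSO at 6 of 6 genes, as at 78.6% of all genes with both. At RRM2 the untreated and DMSO summits compared lay 248 bp apart, and the untreated one held 25 fragments. On fragments over the lowest background, chosen after the data were seen, the median fell to 0.32 over the 6 genes, the same as the 0.32 over all genes. The RRM2 ratio was then 1.63 (95% interval 1.03 to 2.29), TK1 went from 1.23 to 0.31 and TYMS from 0.95 to 0.26. The interval included 0 for RRM1, TYMS, DUT, TK1 and DCK, and such intervals were not counted over all genes. The lowest background, which stood in for the unknown depth, differs between these libraries and neither has a replicate, so the part of the solvent was not tested.

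The E2F motif lay within 100 bp of the strongest GSK126 summit at 5 of the 8 genes, RRM1, TYMS, DUT, TK1 and DCK, against 32.3% of 10279 protein-coding genes with a GSK126 peak. TYMS, DUT and DCK had 2 copies there. RRM2, RRM2B and DTYMK had none, and at the DMSO summit RRM2 had 1. The GC content of the 201 bases around these GSK126 summits ranged from 57.2% at TYMS to 76.6% at RRM2.

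Promoters of 300 bases, read from RefSeq for GRCh38.p14, were searched on both strands for the E2F motif, for CCAAT as the NF-Y box, for the GC box bound by Sp1, spelled GGGCGG, and for the cell cycle homology region, spelled either TTTGAA or, in its second form, TTCGAA. Matches to different motifs were allowed to overlap. 7 of the 8 genes matched the table by symbol, with 1 to 4 promoters each. The E2F motif was in a promoter of 6 of the 7, all but DTYMK, against 15.3% of 27305 genes. CCAAT was in 4 of the 7 (RRM1, RRM2, DTYMK and TK1) against 39.7%, the cell cycle homology letters in 3 of the 7 (RRM1, DUT and DTYMK) against 19.5%, and the GC box in 6 of the 7, all but TYMS, against 48.3%. A gene counted if any of its promoters matched, and DUT had 4 promoters and RRM2 and TK1 had 2 each. Over all 35116 promoters the shares were 13.0% for E2F, 34.6% for CCAAT, 16.4% for cell cycle homology and 45.0% for the GC box. The 27305 genes are a different set from the 19970 protein-coding genes used elsewhere. DTYMK, the gene without an E2F match, held 2 CCAAT boxes, 1 cell cycle homology match and 2 GC boxes. A match is a run of letters and does not show that a factor was bound.

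The control shRNA library had H3K27me3 at the TSS of 1 of the 8 genes and the shE2F1 library at 4 of them, against 27.1% and 51.2% of all protein-coding genes. RRM1 had a peak in both lists. TYMS, DTYMK and DCK had one in shE2F1 and none in control shRNA, which was the case for 26% of all genes. None of the 8 had a peak in control shRNA alone (1.94% of all genes). RRM2, RRM2B, DUT and TK1 had none in either list. The same held for all genes outside the 27.1% with a control shRNA peak and the 26% with one in shE2F1 alone.

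Of the 3 peaks listed in shE2F1 alone, that of TYMS was low in its list by fold and −log10 q, and those of DTYMK and DCK were not. The fold was 2.73 at TYMS with a −log10 q of 1.33, 3.21 at DTYMK with a −log10 q of 2.38, and 3.21 at DCK with a −log10 q of 2.24. Their widths were 338, 866 and 196 bp, against a list median of 811 bp, and no shE2F1 peak was shorter than that of DCK. By fold they stood at the 20.3rd, 77.8th and 77.7th percentiles of all shE2F1 peaks, and by −log10 q at the 29.9th, 92.0th and 89.3rd. With a −log10 q threshold of 5 none of the 3 remained. The lowest −log10 q in the list was 1.01. The depth of the 2 libraries is unknown, and the part of any difference in it was not tested. Each of the 3 lay wholly within the GSK126 E2F1 peak of its gene, and the DTYMK one held the E2F1 summit, while those of TYMS and DCK ended 201 and 40 bp from it.

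H3K27me3 in both lists was not rare, since 27.1% of all genes had a control shRNA peak and 1.94% had one in control shRNA alone. The replication genes CDC45, FEN1, GINS3, PRIM1 and RFC1 had a peak in both lists. So did CMPK1 and GUK1 of the other nucleotide genes. Among the deoxynucleotide synthesis genes, the only one with the mark in both lists was RRM1. Its fold was 5.37 in control shRNA over 174 bp, with a −log10 q of 10.5, and 5.72 in shE2F1 over 322 bp, with a −log10 q of 14.9. Both folds were above the 99th percentile of their lists, at 99.7 and 99.5, and no control shRNA peak was shorter. Both peaks held the E2F1 summit. How such a short, strong interval arose was not tested.

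At RRM2 the nearest H3K27me3 peak was 88150 bp from a TSS in control shRNA and 39544 bp in shE2F1. For TK1 the distances were 26713 and 18191 bp, for RRM2B 19877 and 17126 bp, and for DUT 48466 and 49453 bp. RRM2 therefore had no listed H3K27me3 at a TSS in the E2F1 knockdown library, and a level below the threshold of the list would not appear. The paper counts the RRM2 locus among regions that gained H3K27me3 after E2F1 knockdown. Those regions are a defined set in the paper, which also shows the change in H3K27me3 level at RRM2. Both are different measures from a listed peak, and why they differ from the list here was not tested.

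Among genes with E2F1 in all 3 lists, 43.6% of 1140 had H3K27me3 in shE2F1 and none in control shRNA, as did 2 of the 6 genes here (TYMS and DCK). For genes with E2F1 in both treated libraries and none in untreated cells the share was 43.5% of 5399, and DTYMK was 1 such gene. Where no E2F1 peak was listed in any library the share was 11.5% of 9527 genes. Genes with a control shRNA peak stayed in each of these totals, though they could not be counted as called. Why the shares differ between the classes was not tested.

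Neighbouring steps of nucleotide metabolism were counted in the same way. Of 36 other nucleotide genes, which make purines, pyrimidines and folate cofactors or break nucleotides down, 8 had an untreated peak, 26 a DMSO peak and 31 a GSK126 peak. The untreated peaks with the highest fold were at MTHFD1 (14.0), a folate enzyme, PAICS and PPAT (10.1 each, 1 shared peak between divergent purine genes), CTPS1 (9.65), a CTP synthase, and GART (8.99), another purine enzyme. CDA, DGUOK, DHODH, IMPDH2 and ITPA had no GSK126 peak. H3K27me3 in shE2F1 alone was listed at 15 of the 36, among them PFAS (fold 6.60), ADSS2 (5.48), SHMT1 (3.69) and GMPS (3.54). The same log2 ratio had a median of 0.85 over 25 of these genes with both peaks.

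Of 34 DNA replication genes, 22 had an untreated E2F1 peak, and all had one in DMSO and in GSK126. The highest untreated folds were at PCNA (24.7), the sliding clamp, CDC6 (24.3), an origin licensing factor, the clamp loader subunits RFC4 (22.7) and RFC2 (21.5), and GINS1 (20.3), a subunit of the replicative helicase. Their median fold was 20.3 in DMSO and 38.0 in GSK126, above the 17.6 and 28.6 of the deoxynucleotide genes, and their median log2 ratio was 0.77. H3K27me3 was listed in shE2F1 alone at 13 of the 34, with the highest fold at POLA1 (7.84), MCM5 (5.14), GINS1 (4.81), MCM3 (4.53) and MCM4 (4.29).

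Across all protein-coding genes, the likeness of 2 genes was taken as the Euclidean distance between their log2 values of 1 plus the strongest fold at a TSS in the 5 lists, with 0 for no peak. Nearest to RRM2 were ZNF718 (distance 0.40) and then AFMID and TK1 (0.44 each), which share 1 promoter peak. Nearest to TYMS were SRSF1 and an overlapping gene, ENSG00000266086 (0.20 each), with the same peaks, and CDC7 (0.28). SRSF1 and CDC7 had H3K27me3 in shE2F1 alone, at a fold of 2.89 for SRSF1. Both H3K27me3 lists entered the distance, so this likeness to TYMS is part of how the genes were chosen and not a separate result.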

How the data were processed

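ChIP-seq peak lists of 5 MDA-MB-231 libraries were analysed. Per the study's methods and the submitters' processing notes, the authors checked reads with FastQC 0.11.5, trimmed them with cutadapt 4.5, aligned them to GRCh38 with Bowtie2 2.5.2 and ran MACS2 2.2.9.1 separately on every library, narrow for E2F1 and broad for H3K27me3. The control library used for calling is not given in the sources used here. The labels describe sonication for all libraries, whereas the methods give micrococcal nuclease for histone marks.

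The deposited lists hold for each peak a fold enrichment, which is a ratio to background, and −log10 of the p-value and the q-value. The deposited score and summit offset were also read, the score not being used. Whole fragments and background at each narrow summit were solved from fold and p, within a relative tolerance of 2e-05, for all peaks of the 3 E2F1 lists, and the solver was tested on simulated data. Total read depth is unknown, so the lowest background stood in for it.

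TSSs came from GENCODE release 44, and sequences from hg38, in whose chromosomes every peak lay. Genes on 23 chromosomes (the autosomes and X) were used. Where a gene had several peaks, the strongest by fold was taken. Python 3.11.15, NumPy 2.4.6, SciPy 1.17.1 and pysam 0.24.0 were used. Intervals are exact Poisson or Clopper-Pearson 95% intervals and cover counting error only. The members and lists were chosen with earlier results of these data known. Named genes were the 8 members, genes starting within 1 kb of them, at most 5 genes per class of the other lists by highest fold or alphabetical order, and the 3 genes most like RRM2 and TYMS. Some genes that this rule names are not reported here. Alternatives were other windows, canonical TSSs only, any base or the midpoint of a peak, q thresholds, fragments for fold, overlapping pairs, and other motif settings.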

Additional observations from a re-analysis of the deposited data

How the results depend on the processing

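Of 41 alternative values, 37 stayed within 1.5 times the reported count or within 1 SD over genes of the reported median. The 4 that moved were the number of genes with H3K27me3 in shE2F1, which went from 4 to 1 with a −log10 q threshold of 5, the number with H3K27me3 in shE2F1 and none in control shRNA, which went from 3 to 0 there, the number with an E2F motif within 100 bp of the GSK126 summit, which went from 5 to 2 with the longer motif TTTSSCGC, and the median log2 ratio of DMSO over untreated, which went from 1.08 to 0.32 on fragments over the lowest background, an alternative chosen after the data were seen. A threshold of 2 left 3 and 2 genes for the first pair, TYMS being lost. The E2F1 counts of 6, 7 and 8 were the same with windows of 500 bp and 2 kb, with canonical TSSs, with any base of the peak and with a −log10 q threshold of 5. The median log2 ratio, GSK126 over DMSO, was 0.81 on fragments over the lowest background and 0.78 otherwise. No paired analysis was possible because each condition has 1 library and no test was made. Weak H3K27me3 below the list threshold was not measurable.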

Other observations

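The mitochondrial counterparts of the salvage kinases, chosen after their values were seen, had weaker or no E2F1 peaks. TK2, the mitochondrial thymidine kinase, had no untreated peak and a fold of 10.3 in DMSO and 13.0 in GSK126, against 26.8 and 54.3 for TK1. DGUOK, the mitochondrial deoxyguanosine kinase, had no E2F1 peak in any list, whereas DCK had one in all 3. SAMHD1, which degrades deoxynucleotides, had a fold of 9.16 in DMSO and 18.8 in GSK126 and no untreated peak. Neither DGUOK nor SAMHD1 had H3K27me3 at a TSS in either list, and TK2 had it in shE2F1 alone, with fold 3.36 and −log10 q 2.82.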
